A study of Homo sapiens with 24 samples.

Results

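The cell cycle genes described here are 10 genes that act at the passage from G1 to S phase or lie at the CCND2 locus on chromosome 12: CCND2, CCND3, AC008012.1, TIGAR, CDK4, CDK6, CDKN1A, CDKN1B, CDKN2C and RB1. They were taken by gene symbol and are 10 of the 13007 genes that have a p-value in both of the authors' deposited tables. AC008012.1 was selected on its adjusted p in DMSO, its differing fold change in TPA and its overlap with CCND2 and TIGAR, so those values are given as a description. The others were chosen by their role or position. RNA was sequenced from 2 cutaneous T cell lymphoma lines: MyLa, of mycosis fungoides origin, and HuT 78, derived from Sézary syndrome. Cells carried a hairpin against PRKCQ (shPRKCQ) or a non-targeting control (NTC), and each of these was given the phorbol ester TPA, a direct activator of protein kinase C, at 10 ng/ml, or its vehicle DMSO, for 24 h. The groups are thus MyLa shPRKCQ TPA, MyLa NTC TPA, HuT 78 shPRKCQ TPA, HuT 78 NTC TPA, MyLa shPRKCQ DMSO, MyLa NTC DMSO, HuT 78 shPRKCQ DMSO and HuT 78 NTC DMSO, with 3 libraries in each. Doxycycline at 1 µg/ml was given to the knockdown cells for 72 h or longer beforehand, per the labels' protocols. Those protocols do not say whether NTC cells received it, so doxycycline and hairpin cannot be told apart if they did not. The sources used here do not give the number of hairpins or say whether the lines are single clones.

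In G1, D-type cyclins such as CCND2 and CCND3 bind the kinases CDK4 and CDK6, and the complexes phosphorylate the retinoblastoma protein, RB1. Phosphorylated RB1 releases E2F transcription factors, which switch on genes for DNA synthesis. CDKN2C (p18) is an INK4 inhibitor that binds CDK4 and CDK6, while CDKN1A (p21) and CDKN1B (p27) are CIP/KIP inhibitors that block cyclin E with CDK2. In T cells these genes link antigen receptor and cytokine signals to division, and CDK6 and CCND2 or CCND3 are the usual G1 pair. TIGAR, next to CCND2 in the genome, encodes a fructose bisphosphatase that slows glycolysis and was first described as a p53 target.

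Each of the authors' deposited tables compares 6 shPRKCQ with 6 NTC libraries, both lines pooled, within 1 treatment. Its columns are the log2 fold change and the p-value of a gene, before and after adjustment. Levels per library, depth and the spread between libraries are not analysed here, and no value shows whether MyLa and HuT 78 differ. PRKCQ, the targeted gene, was at -2.08 in TPA and -2.11 in DMSO in the authors' deposited tables, and negative values are therefore read as lower in shPRKCQ cells. Of 13 T cell marker genes, 12 have an adjusted p in the TPA table, all but CD28, and 6 in the shorter DMSO table. Of 5 B cell markers, 4 have one in TPA and 1 in DMSO, and of 5 myeloid markers 2 in TPA and 1 in DMSO, so having an adjusted p does not show which cell type the cells are. An adjusted p under 0.05 counted as a call. Calls were made for 22 of 19417 genes in TPA, which is 0.113% of them, and for 14 of 13007 in DMSO, which is 0.108%.

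AC008012.1 (ENSG00000285901.1, chr12:4273762-4405490, plus strand, GRCh38) is annotated in GENCODE 29 by a single transcript that runs through the 2 genes beside each other on its strand. Its 12 exons begin 10 bases before CCND2 (ENSG00000118971.7, chr12:4273772-4305350). Exons 1 to 4 are those of the main CCND2 transcript, exons 5 to 9 are exons 2 to 6 of the main TIGAR transcript, with the last cut shorter, and exons 10 to 12 lie beyond TIGAR (ENSG00000078237.6, chr12:4307763-4354593). It skips exon 5 of CCND2, the long last exon that holds the end of the cyclin's reading frame, and exon 1 of TIGAR, which holds the start of TIGAR's. The transcript is classed as a target of nonsense-mediated decay, the surveillance that removes RNAs with an early stop codon. The sequences at the exon junctions show how it is put together. They run 5′ to 3′, with the end of the left exon in lower case and the first 18 bases of the right exon in capitals.
AC008012.1 exon 4 to 5: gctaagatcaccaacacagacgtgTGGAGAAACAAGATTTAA
CCND2 exon 4 to 5: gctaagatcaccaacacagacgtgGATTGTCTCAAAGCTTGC
TIGAR exon 1 to 2: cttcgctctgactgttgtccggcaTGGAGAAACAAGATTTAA
The left part of the AC008012.1 junction has the letters of CCND2 and the right part those of TIGAR. CCND2 and AC008012.1 have 720 coding bases before the junction, a whole number of codons, while TIGAR has 32, which leaves 2 bases of an unfinished codon. The shared TIGAR exon is therefore read in another frame in AC008012.1, where its capitals end in a stop codon. The annotated reading frame of AC008012.1 holds 245 codons, against 289 in CCND2 and 270 in TIGAR. Each junction's central 30 bases were found in 1 of the 206694 GENCODE transcripts, that of its own gene.

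**Figure D1:**
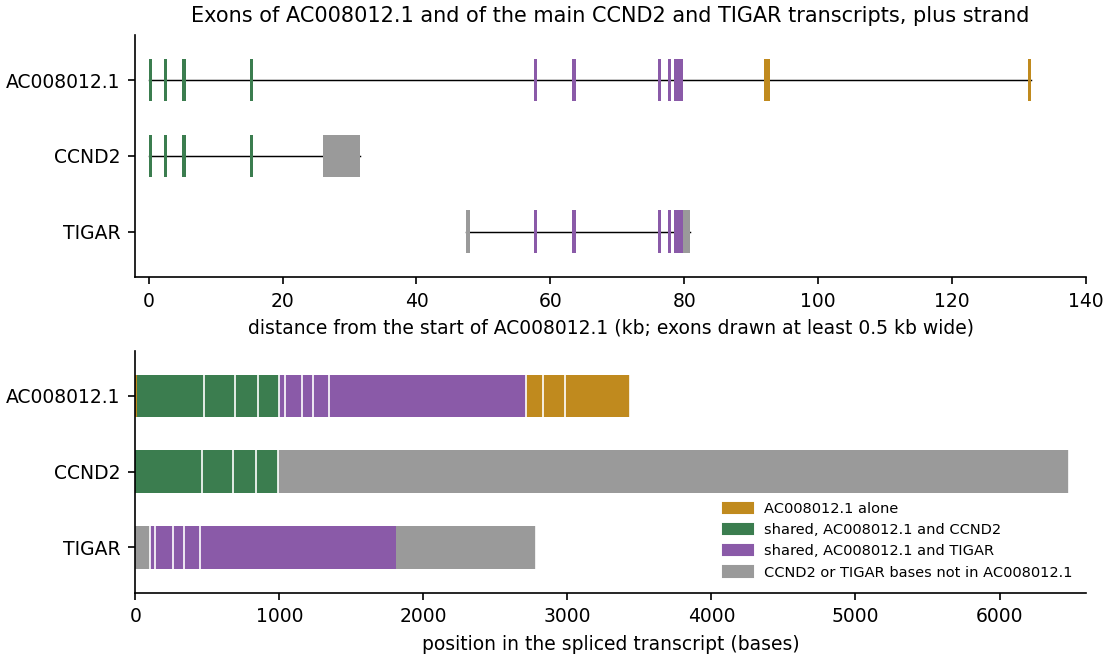
Exons of AC008012.1, CCND2 and TIGAR, drawn along the genome as distance from the start of AC008012.1 in kb (upper panel) and end to end in the spliced transcript in bases (lower panel). Colours show which bases AC008012.1 shares: 989 with CCND2, 1711 with TIGAR and 735 with neither.

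Most of AC008012.1 cannot be told from its neighbours by sequence. Of its 3435 exonic bases, 28.8% are also exon of CCND2 and 49.8% exon of TIGAR, and 21.4% belong to no other gene of that strand. Seen from the other genes, 13.8% of CCND2 exonic bases and 42.6% of those of TIGAR lie in AC008012.1. Reads from these stretches have to be divided among the genes by the counting program. The submitters' notes name RSEM without its role and do not say how reads were divided, so all 3 values are uncertain to that extent. The other 7 genes share no exonic base with another gene of their strand.

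In vehicle-treated cells AC008012.1 was lower with the knockdown while neither of the genes it runs through was called. AC008012.1 was at 0.13 in TPA, or 109% of the NTC level, against -0.84 in DMSO, or 55.9% of the NTC level, in the authors' deposited tables. Its adjusted p in the authors' deposited tables was 1.0 in TPA and 0.00515 in DMSO, where it is the 7th smallest p of the table. A standard error was computed for each value as the fold change divided by the z-value of its p-value, and is called the implied error. For AC008012.1 it was 0.16 in TPA and 0.18 in DMSO, which places the DMSO level between 43.8% and 71.3% of NTC as a 95% interval. The interval in TPA was 87.4% to 137%. Since the gene was selected on these values, the intervals describe it and are not set against each other as a test.

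CCND2, the cyclin whose first exons AC008012.1 carries, was at -0.10 in TPA and -0.12 in DMSO in the authors' deposited tables. That is 93.2% of the NTC level in TPA and 92.1% in DMSO. The 95% intervals of CCND2 were 72.8% to 119% in TPA and 71.4% to 119% in DMSO. TIGAR, the metabolic phosphatase, was at -0.042 in TPA and 0.10 in DMSO in the authors' deposited tables, with levels of 97.1% and 107% of NTC. Its intervals were 78.8% to 120% in TPA and 86.4% to 133% in DMSO. A difference between AC008012.1 and these genes was not tested, because AC008012.1 was selected on its value and the 3 genes share libraries and in part reads.

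**Figure D2:**
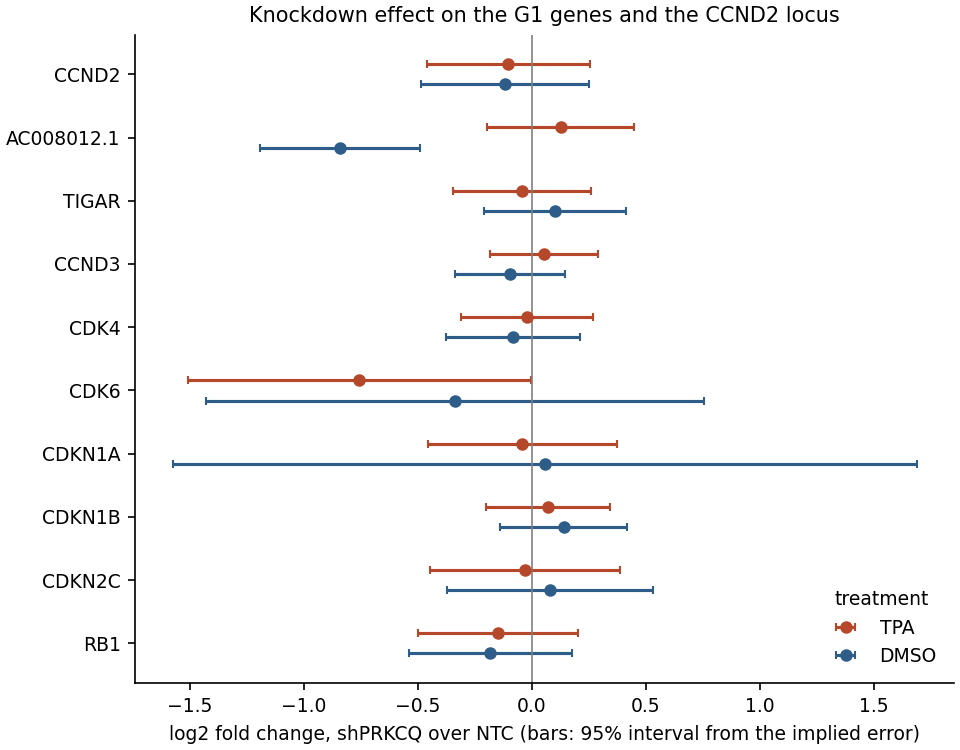
Log2 fold change, shPRKCQ over NTC, of the 10 genes in the authors' deposited tables, with TPA above DMSO for each gene. Bars are 95% intervals from the implied errors; AC008012.1 in DMSO is the 1 called value, and the widest bar is that of CDKN1A in DMSO.

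No D-type cyclin or kinase was called in either table, and CDK6 lay farthest from the NTC level. CCND3 (ENSG00000112576.12, chromosome 6), the second D-type cyclin of T cells, was at 0.054 in TPA and -0.096 in DMSO in the authors' deposited tables. It had the smallest implied errors of the 10 genes, 0.120 in TPA and 0.123 in DMSO, and its intervals ran from 88.1% to 122% and from 79.1% to 111% of NTC. CDK4 (ENSG00000135446.16, chromosome 12), a kinase partner of the D-type cyclins, was at -0.021 in TPA and -0.084 in DMSO in the authors' deposited tables. Its intervals were 80.7% to 120% in TPA and 76.9% to 116% in DMSO. CDK6 (ENSG00000105810.9, chromosome 7), the other kinase partner, was at -0.76 in TPA and -0.34 in DMSO in the authors' deposited tables. These are 59.2% and 79.2% of the NTC level, with intervals of 35.2% to 99.7% in TPA and 37.2% to 169% in DMSO. The unadjusted p of CDK6 in the authors' deposited table was 0.0485 in TPA, where 3.99% of all genes are under 0.05, and 0.545 in DMSO. Its adjusted p was 1.0 in both, and its implied errors of 0.38 and 0.56 were larger than those of 82.9% of genes in TPA and 98.3% in DMSO.

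The inhibitors and RB1 gave no call. CDKN1A (ENSG00000124762.13, chromosome 6), the p53-induced inhibitor p21, was at -0.043 in TPA and 0.056 in DMSO in the authors' deposited tables. CDKN1B (ENSG00000111276.10, chromosome 12), the inhibitor p27 of quiescent cells, was at 0.071 in TPA and 0.14 in DMSO in the authors' deposited tables. The CDKN1B intervals were 87.0% to 127% of NTC in TPA and 90.9% to 134% in DMSO. CDKN2C (ENSG00000123080.10, chromosome 1), the INK4 inhibitor p18, was at -0.030 in TPA and 0.080 in DMSO in the authors' deposited tables. RB1 (ENSG00000139687.15, chromosome 13), the substrate of the cyclin D kinases, was at -0.15 in TPA and -0.18 in DMSO in the authors' deposited tables. Its levels were 90.3% and 88.1% of NTC, with intervals of 70.8% to 115% in TPA and 68.8% to 113% in DMSO. The intervals of CDKN2C, at 73.4% to 131% in TPA and 77.3% to 145% in DMSO, leave room for changes in either direction.

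Taking the 10 genes together, 3 were positive and 7 negative in TPA, and 4 were positive and 6 negative in DMSO. Their median was -0.036 in TPA and -0.090 in DMSO, beside 0.011 and 0.0075 over all genes with an adjusted p. In TPA 0 of 10 genes were called and in DMSO 1 of 10, AC008012.1, beside 0.113% and 0.108% of all genes. The choice of the genes fixes the count in DMSO, so nothing is read from it. At an unadjusted p under 0.05 there was 1 gene in TPA, CDK6, and 1 in DMSO, AC008012.1. The sign was the same in both treatments for 5 genes, namely CCND2, CDK4, CDK6, CDKN1B and RB1, and opposite for the other 5. Over all 13007 genes 35.7% had opposite signs.

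The design crosses the hairpin with the treatment, which poses the question whether the knockdown effect depends on TPA. The knockdown effect in TPA minus that in DMSO was tested for each gene by a two-sided normal test on the implied errors, with Benjamini-Hochberg adjustment over 13007 genes. Of these 0 passed, and 57 had an unadjusted p under 0.05, which is 0.438% of them. The robust SD of its z-values over all genes was 0.579, below the unit SD of a calibrated test, so the test was conservative and its intervals may be too wide. It also takes the fold changes of both treatments to be on the same scale. Those of TPA may be shrunken and on another scale, so the differences below are limited by that. For the 9 genes other than AC008012.1 the difference lay between -0.42 for CDK6 and 0.15 for CCND3, with unadjusted p between 0.384 and 0.952. The difference of CCND2 was 0.016, with a 95% interval of -0.50 to 0.53 on the log2 scale, and that of TIGAR was -0.14, with -0.58 to 0.29. CCND3 had the narrowest interval, -0.19 to 0.49, so a change in its knockdown effect larger than that lies outside it. For AC008012.1 the difference was 0.97 with an interval of 0.49 to 1.44, given as a description with no test because the gene was chosen with this difference known.

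**Figure D3:**
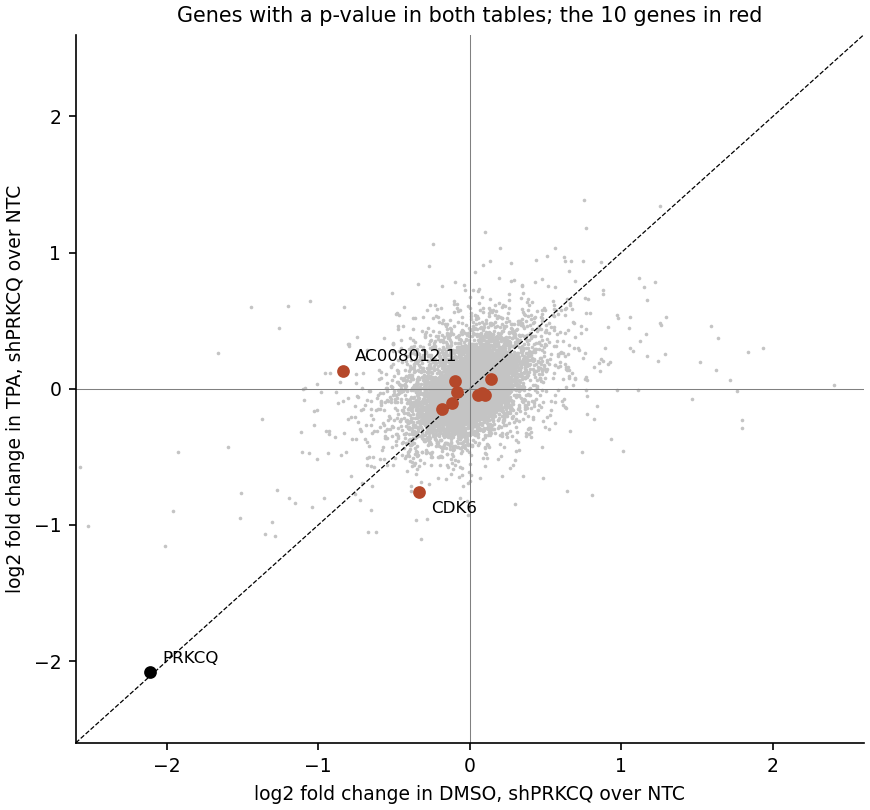
Log2 fold change, shPRKCQ over NTC, in TPA (vertical axis) against DMSO (horizontal axis) for the genes with a p-value in both of the authors' deposited tables; 3 genes beyond 2.6 are outside the axes. AC008012.1 lies off the dashed line of equal values at 0.13 in TPA and -0.84 in DMSO, and PRKCQ lies on it at -2.08 and -2.11.

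The implied errors of the 2 tables moved together from gene to gene. Their ratio, TPA over DMSO, had a median of 0.970 over all shared genes, with 0.822 and 0.987 as its 5th and 95th percentiles. CCND2, CCND3, TIGAR, CDK4, CDKN1B and RB1 had ratios from 0.967 to 0.979. AC008012.1 was at 0.918, CDKN2C at 0.925 and CDK6 at 0.689. CDKN1A stood apart with 0.254, from an error of 0.21 in TPA and 0.83 in DMSO, and 0.108% of genes had a smaller ratio. Its intervals were 72.9% to 129% of NTC in TPA and 33.6% to 322% in DMSO. It is 1 of 115 genes whose ratio departs by more than 1.3 times from a running median over genes of like error, a limit chosen after the values were seen. The smaller absolute z-value of those genes had a median of 0.063, against 0.30 in the other genes. CDKN1A had z-values of -0.20 in TPA and 0.067 in DMSO. The reason for its ratio was not tested. The sources used here do not say whether the authors estimated 1 spread for both tables.

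**Figure D4:**
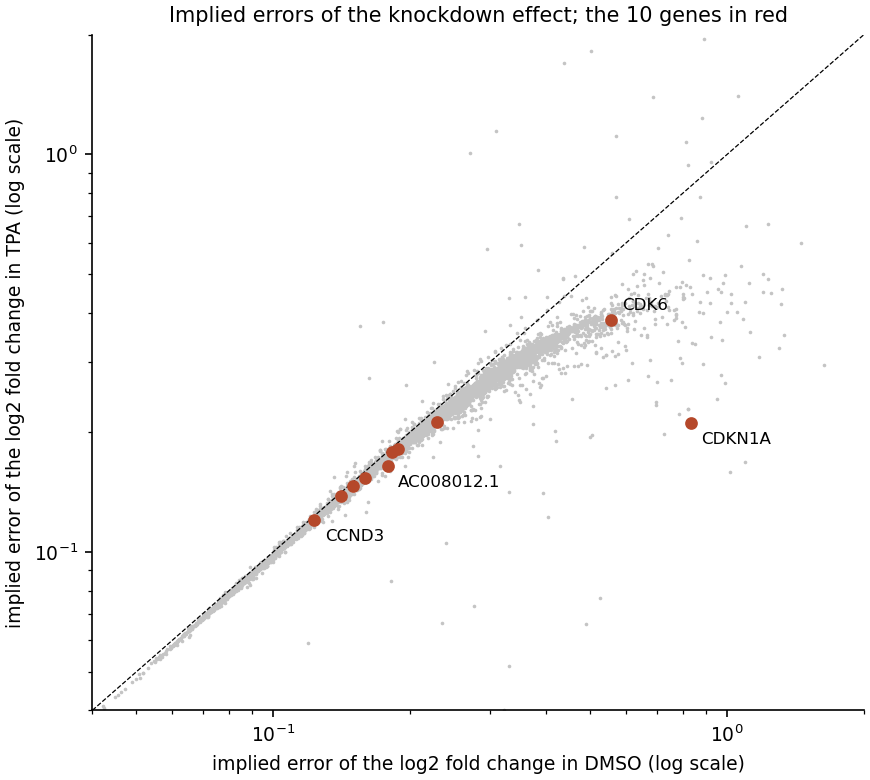
Implied error of the log2 fold change in TPA (vertical, log scale) against DMSO (horizontal, log scale) for genes with a p-value in both tables; 6 genes are outside the axes and the dashed line marks equal errors. The 10 genes in red follow the band of all genes except CDKN1A, at 0.21 in TPA and 0.83 in DMSO.

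Beyond the 10 genes, 48 other genes of the lists, which cover G1 regulators and the PFKFB enzymes that act on the same metabolite as TIGAR, gave no call in either table. In TPA 46 of them had an adjusted p, of which 35 were negative and 11 positive, with a median of -0.11, while 47.0% of all genes were negative. In DMSO 42 had an adjusted p, 19 negative and 23 positive, with a median of 0.016. The E2F and DP factors, transcription factors of which some are held by RB1, were at values under 0 for all 10 genes in TPA, from -0.50 to -0.063 with a median of -0.20. In DMSO 4 of 9 were negative and the median was 0.015. At an unadjusted p under 0.05 there was 1 of these factors in TPA and 0 in DMSO. Cyclin E, CDK2 and CDC25A, the genes of the later G1 kinase, had 4 of 4 negative in TPA with a median of -0.19, and 2 of 4 in DMSO with a median of 0.00074. The pocket proteins, RB1 with its relatives RBL1 and RBL2, were negative in both, with medians of -0.15 in TPA and -0.17 in DMSO. CDKN2A and CDKN2B have no adjusted p in either table, and CCND1, CDKN1C, E2F5 and PFKFB1 have none in DMSO. The medians of a group can thus cover different genes in TPA and DMSO. A difference between the treatments was not tested for any group, and the genes of a group are not replicates.

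**Figure D5:**
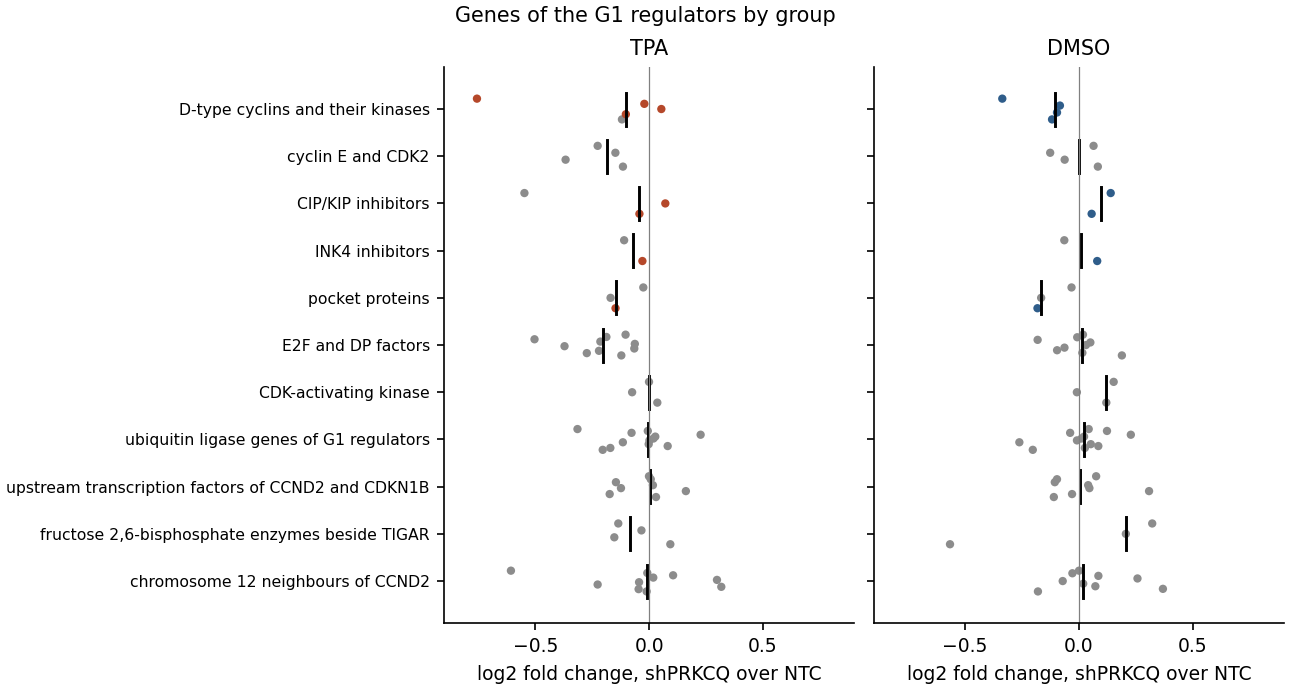
Log2 fold change, shPRKCQ over NTC, by group in the authors' deposited tables, TPA in the left panel and DMSO in the right. The groups are G1 regulators, PFKFB enzymes and chromosome 12 neighbours of CCND2. Each point is a gene with an adjusted p, coloured points are among the 10 genes and black bars are group medians. The E2F and DP factors lie left of 0 in TPA, median -0.20 over 10 genes, and about 0 in DMSO, median 0.015 over 9. This contrast was not tested.

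Single genes of these lists reached an unadjusted p under 0.05 without passing over all genes, 2 of 46 in TPA (4.35%) and 3 of 42 in DMSO (7.14%). In all genes the shares were 3.99% in TPA and 3.04% in DMSO. CUL4A, a scaffold of ubiquitin ligases that act on cell cycle proteins, was at 0.23 in both TPA and DMSO in the authors' deposited tables. Its unadjusted p there was 0.00171 in TPA and 0.00207 in DMSO, and its adjusted p was 0.332 and 0.432. E2F3, an activating E2F, was at -0.22 in TPA and -0.096 in DMSO in the authors' deposited tables (unadjusted p = 0.0291 and 0.354). FBXW7, the ligase subunit that marks cyclin E for degradation, was at -0.12 in TPA and -0.26 in DMSO in the authors' deposited tables (unadjusted p = 0.2 and 0.00479). PFKFB2, which makes and breaks down the fructose 2,6-bisphosphate that TIGAR also removes, was at -0.15 in TPA and -0.57 in DMSO in the authors' deposited tables. Its unadjusted p was 0.385 in TPA and 0.00191 in DMSO, and its adjusted p in DMSO was 0.415.

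The neighbourhood of CCND2 on chromosome 12 was followed through a list of 13 genes, of which 10 had an adjusted p in TPA and 9 in DMSO. None was called in either table, 1 in TPA and 0 in DMSO had an unadjusted p under 0.05, and the medians were -0.0095 in TPA and 0.019 in DMSO. C12orf4, some distance past the end of AC008012.1, was at 0.32 in TPA and 0.072 in DMSO in the authors' deposited tables (unadjusted p = 0.0122 and 0.579). CCND2-AS1 (chr12:4248765-4276184, minus strand) overlaps the first exons of CCND2 and AC008012.1 on the opposite strand, and the libraries kept strand per the labels' protocols. It was at -0.046 in TPA and 0.37 in DMSO in the authors' deposited tables, with implied errors of 0.35 and 0.55. FGF23, on the minus strand within an intron of AC008012.1, has no fold change in either table.

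The pattern of AC008012.1 over the 2 treatments was compared with that of every shared gene by the Euclidean distance of their z-values. The nearest genes were GREB1 at a distance of 1.70, LOXL1 at 1.71 and TNFRSF14-AS1 at 2.04. GREB1 was at -0.047 in TPA and -0.61 in DMSO in the authors' deposited tables. LOXL1, an enzyme of the lysyl oxidase family, was at -0.092 in TPA and -0.84 in DMSO in the authors' deposited tables. TNFRSF14-AS1, an antisense RNA gene, was at -0.049 in TPA and -0.49 in DMSO in the authors' deposited tables. None of the 3 was called, with adjusted p in DMSO of 0.272, 0.230 and 0.532. With 2 treatments to compare, likeness of this kind rests on 2 values per gene.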

How the data were processed

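RNA sequencing of 24 libraries was used through the 2 comparison tables that the authors deposited. Per the file headers, each holds the authors' log2 fold change, p-value and adjusted p-value per gene, which were taken as deposited. The submitters' processing notes name STAR 2.5.3a, RSEM 1.3.0, DESeq2 1.18.1 and GRCh38, without roles. The sources used here do not give the model, its covariates or whether fold changes were shrunken. Among the TPA values, 2910 genes share 1 fold change, which does not by itself show shrinkage. The TPA values may still be shrunken and on another scale than those of DMSO. Depth is unknown, and a count model was not possible. Replicates are called independent in the labels.

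The z-value of a gene came from its p-value and the sign of its fold change. The implied error assumes that the p-value tests the deposited fold change. The tables were taken as independent, since they share no library; the z-values of the difference were narrower than this implies. Identifiers of all genes matched GENCODE 29. Junction sequences were read from its transcripts. The 10 genes and all lists were chosen with earlier results of these data known. Besides the 10 genes and PRKCQ, the text names list genes with an unadjusted p under 0.05 in either table, G1 genes and PFKFB1 that lack an adjusted p, and the 3 genes nearest to AC008012.1. CCND2-AS1 and FGF23 were named after their values were seen, for their position. Python 3.11.15, numpy 2.4.6, scipy 1.17.1, pandas 2.3.3 and matplotlib 3.10.9 were used.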

Additional observations from a re-analysis of the deposited data

How the results depend on the processing

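No paired analysis was possible because both tables hold no value per library, and leaving out replicates, other normalizations and count tools could not be run for the same reason. In DMSO every gene with a p-value also has an adjusted p and is in both tables, so those adjustments repeat the main one, and rescaling by the robust SD of z can only lower p. They therefore say nothing about the stability of the AC008012.1 call, whose adjusted p ranged from 9.19e-07 to 0.00515. In TPA 0 of the 10 genes were called with any of these adjustments. For the other 9 genes the smallest adjusted p over these alternatives was 0.484 in TPA and 0.898 in DMSO. Centring on the median of shared genes, 0.0017 in TPA and 0.0075 in DMSO, changed no sign of a called gene. Over all genes, the 22 calls in TPA became 10 at an adjusted p under 0.01 and 14 with an absolute log2 fold change of at least 1. They became 113 with rescaled p-values and 8 when adjusted over genes of both tables. These 8 are counted only among genes with a p-value in both, so any TPA call in another gene drops out. The 14 calls in DMSO became 8, 3 and 109 under the stricter threshold, the minimum fold change and the rescaling. AC008012.1, at -0.84, loses its call under the minimum fold change. For the difference between treatments, 0 genes passed, also on the difference of z-values and with centred fold changes, each with 55 at an unadjusted p under 0.05. Dividing its z by a robust SD of 0.579 gave 24 genes, none of them among the 9 genes other than AC008012.1, whose own difference was used to choose it. That depth and the spread between libraries are unknown limits what any of these values can show.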

Other observations

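AC008012.1 is 1 of many annotated genes that share much of their exonic sequence with others of their strand. In GENCODE 29, 655 genes share at least 50% of their exonic bases with other genes of their strand and touch exons of 2 or more protein-coding genes there. These limits were chosen after the values were seen, and they do not require a transcript that runs through other genes. In TPA 371 of them have an adjusted p and 0 were called, with 9 (2.43%) at an unadjusted p under 0.05, beside 3.99% of all genes. In DMSO 204 have one and 1 was called, AC008012.1, which the choice of the gene fixes. There 10 (4.90%) were at an unadjusted p under 0.05, beside 3.04% of all genes. Among the 204, the absolute difference of the knockdown effect between TPA and DMSO had a median of 0.19 on the log2 scale, beside 0.091 over all 13007 shared genes. An absolute difference at least as large as that of AC008012.1 was seen in 8 of the 204 (3.92%), AC008012.1 included. Over all shared genes it was seen in 61 (0.469%). In DMSO 4 of the 204, again with AC008012.1, had an absolute fold change at least as large as its own. The share over all genes was not counted for this, so nothing is read from it. The implied errors of the 204 genes were also larger, with medians of 0.256 in TPA and 0.282 in DMSO, against 0.167 and 0.172 over all shared genes. The part of this in the larger differences was not tested.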
